A study of Mus musculus with 8 samples.

Results

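Layer 4 intratelencephalic (IT) glutamatergic neurons were taken here as the cortical nuclei chosen by raw counts of 8 genes. A nucleus was kept with at least 2 unique molecular identifiers (UMIs, each marking 1 captured RNA molecule) of Slc17a7, at most 1 of Gad1 and Gad2 together, at least 6 of Rorb, at least 2 of Cux2, and at most 2 of Foxp2, 1 of Hs3st4 and 2 of Tshz2. Of 54341 nuclei that met the limits on quality, 18581 were glutamatergic by the first pair of limits and 162 met all of them (0.298% of the nuclei, 0.872% of the glutamatergic nuclei). Since these genes chose the nuclei, their levels in them are a description and were not tested.

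Layer 4 is the main target of sensory input from the thalamus. Its IT neurons are excitatory, signal with glutamate and send their axons to other cortical layers rather than out of the telencephalon. Slc17a7 encodes the vesicular transporter that loads glutamate into synaptic vesicles. Rorb is a nuclear receptor that marks layer 4 and part of layer 5, and Cux2 is a homeodomain factor of layers 2 to 4. Hs3st4 and Foxp2 mark corticothalamic neurons of layer 6, Tshz2 marks near-projecting neurons of layers 5 and 6, and Gad1 and Gad2 make GABA in inhibitory neurons. IFNAR1 is a chain of the receptor for type I interferons, which signals through the kinases JAK1 and TYK2 to transcription factors such as STAT2 and IRF9.

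The nuclei came from the cortex of 4 Wt (Ifnar1+/+) mice and 4 mice without Ifnar1 (Ifnar1-/-), with 2 of each sex per genotype, all naive, 6 weeks old and of the C57BL6J strain, with 1 library per mouse. The knockout is present in every cell, and the study backcrossed its line to C57BL/6J over many generations. Libraries held 44063346 to 58423423 UMIs. The layer 4 IT nuclei of a mouse summed to 76531 to 368164 UMIs, 1711210 in all. The median layer 4 IT nucleus held 10076.5 UMIs and 3596 genes. Among all nuclei kept, 352 of 53985 barcodes occurred in more than 1 library. None occurred in the layer 4 IT nuclei of more than 1 mouse, and 4 layer 4 IT barcodes were also seen in another library.

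Rorb was the limit that removed most glutamatergic nuclei, and Hs3st4 removed most of those that had met the limits on Rorb, Cux2 and Foxp2. At least 6 Rorb UMIs were found in 2361 glutamatergic nuclei, 993 of these also had at least 2 Cux2 UMIs, and 970 of these met the limit on Foxp2. The Hs3st4 limit then took out 803 nuclei, or 82.8%, and the Tshz2 limit 5. With all other limits met, 98 nuclei had no Hs3st4 UMI, 64 had 1, 94 had 2 and 88 had 3, so the limit did not lie in a gap between groups of nuclei. At the Rorb limit, 36 nuclei with exactly 6 UMIs were just inside and 56 with 5 were just outside. At the Cux2 limit these counts were 38 with 2 UMIs and 56 with 1.

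The 761 nuclei that failed only the Hs3st4 limit met the same limits on the other genes. Their median was 10 Rorb and 7 Hs3st4 UMIs per nucleus, against 8 and 0 in the layer 4 IT nuclei. In nuclei chosen as layer 6 corticothalamic (at least 4 UMIs each of Foxp2 and Hs3st4, at most 2 of Rorb) the median was 27 Hs3st4 UMIs. As counts per 1000000 UMIs (CPM) of the summed nuclei, Hs3st4 stood at 37.4 in the layer 4 IT nuclei, 702.7 in the nuclei over the limit and 3088 in the layer 6 corticothalamic nuclei. The order of these Hs3st4 levels follows from the limits that chose each group. By the limit itself, the layer 4 IT nuclei are the part of a larger Rorb- and Cux2-positive population with the least Hs3st4. Results are also given for the 923 nuclei that meet every limit but this one.

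**Figure D1:**
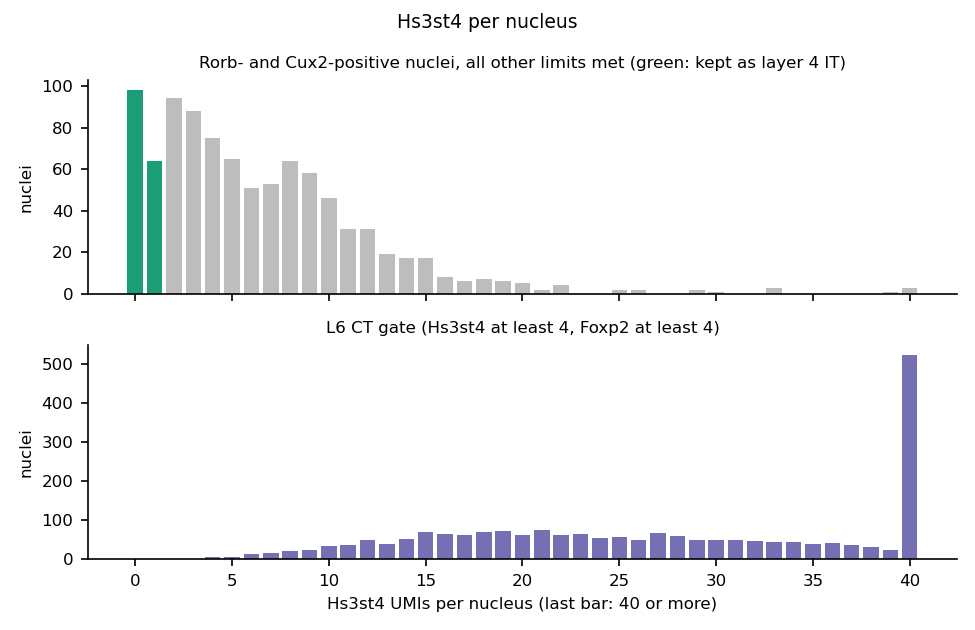
The x axis gives Hs3st4 UMIs per nucleus and the y axis the number of nuclei, for nuclei that met every other limit (upper panel, green bars kept as layer 4 IT) and for the layer 6 corticothalamic gate (lower panel). The 98 and 64 nuclei with 0 and 1 UMI lie at the low end of a distribution that falls gradually to about 20 UMIs, while most corticothalamic nuclei lie above that.

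The name was checked on markers that the limits had not used. Rspo1, a secreted R-spondin that enhances Wnt signalling and a marker of layer 4, stood at 23.4 CPM, against 6.29 in the other 18419 glutamatergic nuclei, 2.10 in nuclei chosen as layer 2/3 IT (Cux2 at least 6, Rorb at most 2), 0.971 in nuclei chosen as layer 5 IT (Rorb and Deptor at least 2, Cux2 absent) and 0.79 in the corticothalamic nuclei. By mouse it was 10.9, 27.3, 18.8 and 43.7 CPM in Wt F1, F2, M1 and M2, and 39.2, 19.6, 26.8 and 20.7 CPM in Ifnar1-/- F1, F2, M1 and M2. Every mouse was above its own other glutamatergic nuclei, and the genotypes overlapped. Kcnh5, a voltage-gated potassium channel, stood at 416 CPM against 151 in the other glutamatergic nuclei, and Whrn, the scaffold protein whirlin, at 46.8 against 24.8. Thsd7a was level at 169 against 165 CPM.

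A further marker of layer 4, the sodium channel subunit Scnn1a, was all but absent, with 1 UMI over the 162 nuclei. It stood at 0.584 CPM there, 1.77 CPM in the other glutamatergic nuclei and 4.65 CPM in the nuclei over the Hs3st4 limit. The nuclei over that limit were also higher in Rspo1 (36.5 CPM), Kcnh5 (516 CPM), Whrn (114 CPM) and Thsd7a (395 CPM) than the layer 4 IT nuclei. All 5 layer 4 markers outside the limits were thus higher in the nuclei that the Hs3st4 limit left out than in those it kept.

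Of 36 listed markers of other excitatory types that the limits had not used, 29 were lower than in the other glutamatergic nuclei and 7 higher. Otof, of layer 2/3, stood at 7.01 CPM against 71.1 in the layer 2/3 gate. Etv1, of layer 5 IT neurons, stood at 18.1 CPM against 133 in the layer 5 IT gate. Fezf2 and Bcl11b, of subcerebral projection neurons, stood at 2.34 and 8.18 CPM against 13.4 and 124 in the other glutamatergic nuclei. Sulf1, of corticothalamic neurons, had 1 UMI, and Syt6 also had 1. Of the layer 2/3 list, Calb1, Rasgrf2 and Stard8 were among the 7, at 38.6, 162 and 32.1 CPM against 20.8, 92.9 and 16.7 in the other glutamatergic nuclei and 55.2, 268 and 68.8 in the layer 2/3 gate. The others were Synpr, at 65.5 against 62.2 CPM, and Sla2, Smyd1 and Car3, each with fewer than 10 UMIs. Fam19a1, listed for subcerebral projection neurons, was abundant at 924 CPM, against 1508 in the other glutamatergic nuclei, and Cdh13 stood at 164 against 328 CPM.

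**Figure D2:**
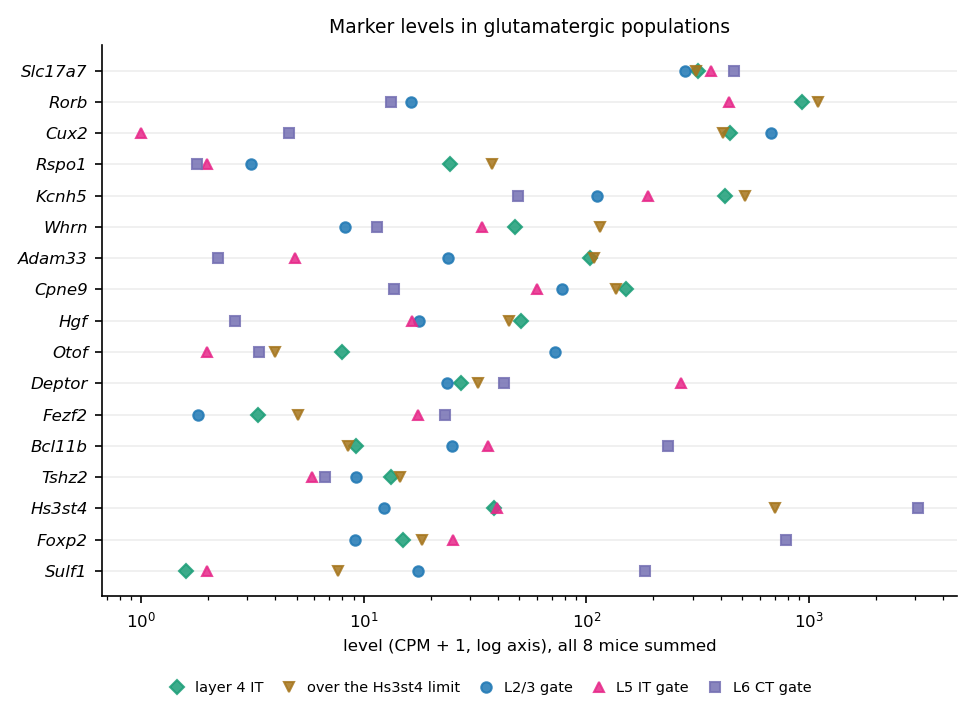
Each row is a gene and the x axis its level (CPM plus 1, log axis) in nuclei summed over all 8 mice, with a symbol for each population. The layer 4 IT nuclei share Rspo1, Kcnh5, Adam33, Cpne9 and Hgf with the nuclei over the Hs3st4 limit, at levels above the layer 2/3, layer 5 IT and corticothalamic gates.

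Outside the genes of the limits, the 15 genes with the highest ratio of levels between layer 4 IT and the other glutamatergic nuclei, among those at 20 CPM or more, ran from Gm42953 at 6.05-fold to Tshz1 at 3.27-fold. They are a description of the nuclei chosen. Of the 15, 10 are protein-coding and 5 are long intergenic non-coding RNAs. Adam33, a membrane metalloprotease, stood at 102 CPM against 17.9 in the other glutamatergic nuclei. Slc13a5, the citrate carrier of the plasma membrane, stood at 27.5 against 6.41 CPM, and Ddit4l, an inhibitor of mTOR signalling, at 31.0 against 6.15 CPM. Cpne9, a calcium-dependent phospholipid-binding copine, stood at 150 against 42.1 CPM, and Hgf, the hepatocyte growth factor, at 49.7 against 15.2 CPM. Cpne9 was steady between mice (107 to 193 CPM). Xirp2, an actin-binding protein, was not, at 9.41 to 114 CPM, and its lowest mice were 3 males (Wt M1 and M2 and Ifnar1-/- M1).

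Gm42953 and Gm40331, both long intergenic non-coding RNAs, lie near each other on chromosome 5 (126797255 to 126815482 and 126852757 to 126885316, GRCm38), and both were higher in layer 4 IT than in the other glutamatergic nuclei of all 8 mice. At the other end, among genes at 50 CPM or more in the other glutamatergic nuclei, the lowest ratios were those of Sulf1, a sulfatase of heparan sulfate, Gm26883, Bcl11b and Thsd7b. Gm26883 lies within Tshz2, a gene of the limits, on the opposite strand, so their reads may be shared. Thsd7b stood at 16.4 against 222 CPM and the kainate receptor subunit Grik3 at 22.8 against 208 CPM.

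The share of layer 4 IT nuclei overlapped between the genotypes and varied about as much within each. Wt F1, F2, M1 and M2 held 29, 22, 13 and 19, and Ifnar1-/- F1, F2, M1 and M2 held 10, 25, 20 and 24. As a share of glutamatergic nuclei this was 1.34%, 1.05%, 0.459% and 0.762% in Wt, and 0.534%, 1.64%, 0.623% and 1.01% in Ifnar1-/-. Both the highest and the next to lowest share were in Ifnar1-/- females, and the genotypes overlapped. The mean was 0.903% ± 0.38 in Wt and 0.95% ± 0.501 in Ifnar1-/- (SD, n = 4 each), a difference of 0.0464 percentage points (exact permutation test, two-sided, p = 0.886, in a design of 70 arrangements that can pass 0.05). The 95% Wilson interval, which covers counting error only, ran from 0.29% to 0.98% in Ifnar1-/- F1 and from 1.11% to 2.40% in Ifnar1-/- F2. The means of Wt and Ifnar1-/- were 1.2% and 1.08% in females alone and 0.61% and 0.815% in males alone.

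The limits were set on raw UMIs. The layer 4 IT nuclei had at least 3820 UMIs, whereas the other glutamatergic nuclei reached down to 1013, but the medians over all mice were 10076.5 and 9788, and in 5 of 8 mice the layer 4 IT median was below that of the glutamatergic nuclei. The median was 10305 ± 1978 UMIs per layer 4 IT nucleus in Wt and 9646 ± 1989 in Ifnar1-/- (mean over mice, SD, n = 4 each, exact permutation p = 0.657). Every nucleus was also thinned to 5000 UMIs, with the limits on Slc17a7, Rorb, Cux2, Foxp2 and Tshz2 lowered for the thinned counts. The limits of at most 1 UMI stayed for Hs3st4 and for Gad1 and Gad2 together, which lets in more nuclei at this depth. In this wider set the share was 2.09% ± 0.291 in Wt and 2.45% ± 0.364 in Ifnar1-/- (exact permutation p = 0.2). Per mouse, 1158 to 4520 shallower nuclei were left out. The same nuclei were thus not compared at equal depth.

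**Figure D3:**
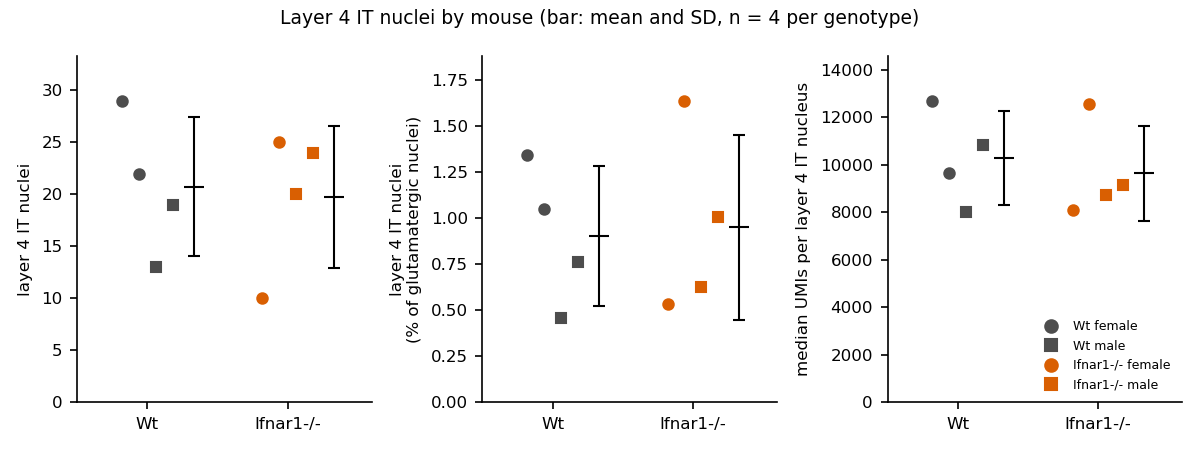
Points are mice (circles females, squares males) and bars the mean and SD of 4 mice, for the number of layer 4 IT nuclei, their share of glutamatergic nuclei in percent, and the median UMIs per layer 4 IT nucleus. Both genotypes span a similar range in each panel, from 10 to 29 nuclei and 0.459% to 1.64%.

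Ifnar1 itself was sparse in these nuclei. It lies on chromosome 16 (91485238 to 91507441, GRCm38) and had 5, 6, 6 and 6 UMIs in Wt F1, F2, M1 and M2 and 2 in each Ifnar1-/- mouse. After TMM scaling this was 13.6, 28.0, 55.1 and 27.6 CPM in Wt and 28.2, 6.69, 10.2 and 8.28 CPM in Ifnar1-/-, so that the genotypes overlapped, and the gene was too low to enter the test. In the 923 nuclei without the Hs3st4 limit it had 102 UMIs in Wt and 74 in Ifnar1-/-, with a log2 fold change of -0.26 (SE 0.27, edgeR adjusted p = 0.9995). Tags near the 3' end do not show whether a transcript carries the altered part of the gene, so these counts check the labels in neither direction.

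To ask what the loss of Ifnar1 changes in layer 4 IT nuclei, their UMIs were summed per mouse and the genotypes compared with edgeR's quasi-likelihood test, with sex as a covariate. A Benjamini-Hochberg adjusted p under 0.05 was reached by 1 of 3756 genes (0.0266%). It was Gm43713, higher in Ifnar1-/-. A further 166 had an unadjusted p under 0.05, which makes 167 in all (4.45%).

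Gm43713 (ENSMUSG00000106218, chromosome 3, 88845025 to 88900001, minus strand, GRCm38) is annotated as an antisense RNA and lies within Gon4l, a gene for a transcriptional regulator on the plus strand (88835231 to 88910103). Its level in Wt F1, F2, M1 and M2 was 67.8, 93.2, 64.3 and 69.0 CPM, and in Ifnar1-/- F1, F2, M1 and M2 it was 282, 201, 189 and 228 CPM. Every Ifnar1-/- mouse was above every Wt mouse, which 1.73% of the genes tested showed in either direction. The log2 fold change was 1.56 (SE 0.24, edgeR adjusted p = 0.00385), and the ratio of the means on the log2 scale was 1.59 within females and 1.64 within males. Without Wt M2 the log2 fold change was 1.56 with an adjusted p of 0.0508, and in nuclei with at least 8 Rorb UMIs it was 1.6 with an adjusted p of 0.133, so that the call was lost in both. Its 239 UMIs were spread over 112 of the 162 nuclei, and 3 nuclei held 7.53% of them.

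Gon4l itself stood at 73.2, 107, 175 and 124 CPM in Wt and at 212, 191, 169 and 170 CPM in Ifnar1-/-. Wt M1 lay within the range of the Ifnar1-/- mice. Its log2 fold change of 0.69 (SE 0.25) did not pass (edgeR adjusted p = 1.0, unadjusted p = 0.0101). The genes overlap, and how the strand of the reads was used in counting is not given in the sources used here, so UMIs of the one may be counted for the other. Within 10 Mb of Gon4l, 47 genes were tested and 4 had an unadjusted p under 0.05 (8.51%, against 4.45% of all genes tested). They were the overlapping Gm43713 and Gon4l, and Trim2 and 4921511C10Rik. The window was drawn around Gon4l, so Gm43713 and Gon4l lie in it by choice and raise its share. Whether the genes around them differ more often than others was not tested. Within 10 Mb of Ifnar1, 23 genes were tested and none had an unadjusted p under 0.05 in edgeR.

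The other 19 of the 20 genes with the smallest p did not pass the threshold. Gm26848, a long intergenic non-coding RNA on chromosome 17, was next, at 1149, 1380, 1158 and 1252 CPM in Wt and 1765, 1944, 1922 and 2059 CPM in Ifnar1-/-. The groups did not overlap, and the log2 fold change was 0.63 (SE 0.13, edgeR adjusted p = 0.148). Cntfr, a receptor for ciliary neurotrophic factor, stood at 92.2, 51.3, 55.1 and 69.0 CPM in Wt and 14.1, 23.4, 10.2 and 49.7 CPM in Ifnar1-/-, again without overlap (log2 fold change -1.38, SE 0.41, edgeR adjusted p = 1.0). Fstl5, a secreted follistatin-like protein, had a log2 fold change of -1.25 (SE 0.34), and the zinc-finger factor Tshz3 of 0.68 (SE 0.21), both with overlapping mice.

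Among the same 19, Epha4, a receptor for ephrins, stood at 309 ± 47.6 CPM in Wt and 450 ± 63.2 in Ifnar1-/- (SD, n = 4 each). The deubiquitinase Usp14 stood at 45.5 ± 10.1 against 87.9 ± 4.31 CPM, and Frs2, an adaptor of fibroblast growth factor receptors, at 62.5 ± 12 against 122 ± 32.3 CPM. Epha4, Usp14 and Frs2 did not overlap between genotypes here, and neither did Arhgap23 and Mbp, given below. All were chosen for a small p, and 1.73% of all genes tested showed no overlap. Without the Hs3st4 limit the log2 fold changes of Epha4, Usp14 and Frs2 were 0.16, -0.11 and 0.09. The axon guidance receptor Robo3 was fitted at 1.12 (SE 0.37) and the splicing factor Hnrnpl at -0.77 (SE 0.25). Ndrg4 was fitted at -0.65 (SE 0.21), Arhgap23 at -1.01 (SE 0.31), Gm49356 at 1.06 (SE 0.33), Gm48321 at 0.92 (SE 0.25) and 1700010K23Rik at 1.10 (SE 0.37). Gm47283, at -1.72 (SE 0.49), is annotated on the Y chromosome but had UMIs in all 4 females, so its values are uncertain. The myelin gene Mbp was fitted at -1.04 (SE 0.34), Erbb4 at 1.57 (SE 0.52) and Kctd8 at 1.65 (SE 0.53).

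**Figure D4:**
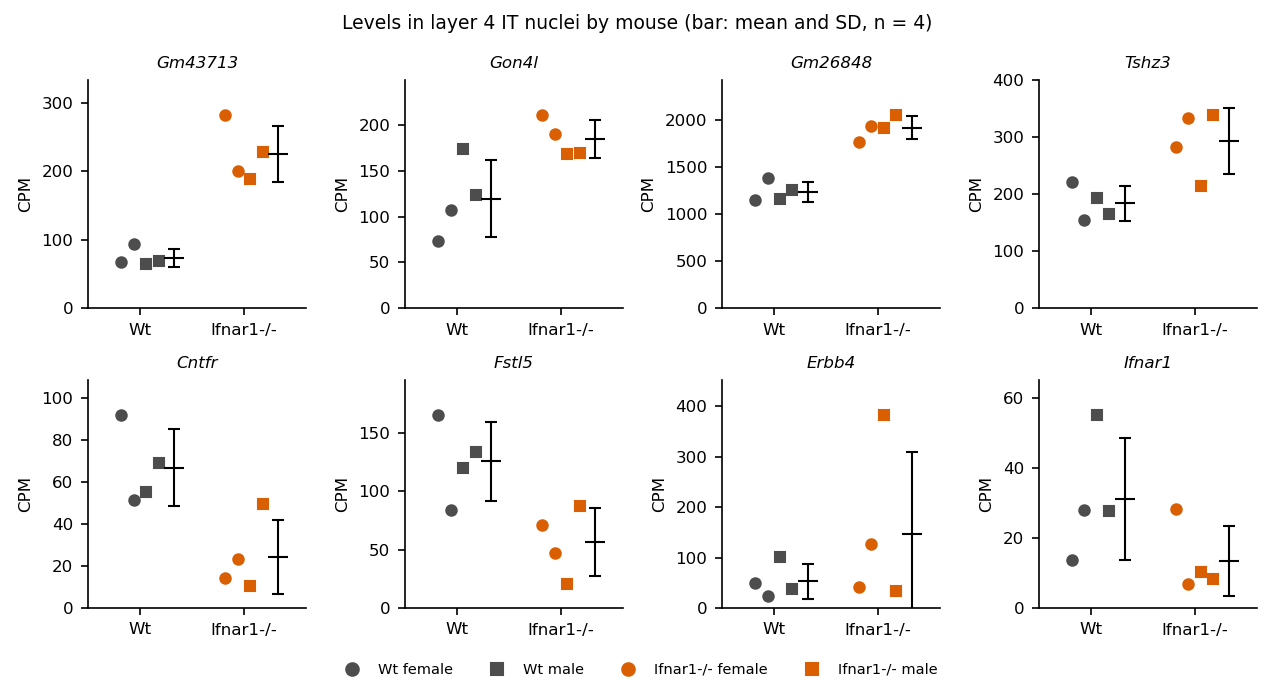
Each panel gives the TMM-scaled level of a gene (CPM) in the layer 4 IT nuclei of each mouse, by genotype (circles females, squares males), with the mean and SD of 4 mice. Gm43713 is the gene that passed the test, with Ifnar1-/- mice at 189 to 282 CPM and Wt mice at 64.3 to 93.2 CPM, and Ifnar1 itself overlaps between the genotypes.

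Without the limit on Hs3st4, an alternative chosen after the data were seen, the fit rested on 923 nuclei and 9966 genes and 13 passed (0.13%), 8 higher and 5 lower in Ifnar1-/-. All but 162 of these nuclei are others than those above. Gm43713 was again higher, at 67.2 ± 24.6 CPM in Wt and 217 ± 40.1 in Ifnar1-/- (SD, n = 4 each), with a log2 fold change of 1.71 (SE 0.15, edgeR adjusted p = 1.52e-05). Gon4l (0.95, SE 0.12), Tshz3 (0.76, SE 0.11) and Gm26848 (0.63, SE 0.09) were higher with adjusted p of 0.00218, 0.00308 and 0.00308. Cntfr fell by 1.52 on the log2 scale (SE 0.20), from 72.7 ± 10.9 to 25.7 ± 5.98 CPM, and Fstl5 fell by 1.16 (SE 0.17), from 106 ± 6.91 to 51.4 ± 15 CPM. Pcdh15, a protocadherin, rose from 1330 ± 164.5 to 1959 ± 168.5 CPM. In the layer 4 IT nuclei alone its log2 fold change was 0.22 with an unadjusted p of 0.417 in edgeR.

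Of the other genes in that fit, Gm12576, a long intergenic non-coding RNA, had 70 UMIs in Wt and 0 in Ifnar1-/- without the limit, and 11 and 0 in the layer 4 IT nuclei. Gm15446 had 121 and 20 UMIs without the limit and 19 and 4 in the layer 4 IT nuclei. The protease gene Prss48 had 144 and 16, and 21 and 4. 4930578G10Rik, Gm2163 and Gm12394 lie together on chromosome 4 between 42466752 and 42856771, in a region of near-identical gene copies where reads may be divided between them, and Cntfr lies at 41657498 to 41697089 of the same chromosome. Their log2 fold changes were 0.83, 0.64 and 1.03, and 0.36, 0.43 and 0.61 in the layer 4 IT nuclei, where they did not pass.

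Genes of the interferon response were at the edge of detection. Of 65 listed genes induced by type I interferon, 63 were in the files, 27 of these had no UMI in the layer 4 IT nuclei and 3 were high enough to test. Herc6, an interferon-induced ligase of ISG15, was fitted at a log2 fold change of 0.66 (SE 0.34, edgeR unadjusted p = 0.0611), at 58.1 ± 10.7 CPM in Wt and 78.1 ± 45.4 in Ifnar1-/- (SD, n = 4 each). The RNA editing enzyme Adar was at 0.24 and the factor Irf2 at 0.09. The 60 genes that were too low summed to 119 UMIs in Wt and 133 in Ifnar1-/-. Isg15 had 2 and 1, Ifit1 had 1 and 1, and Irf7, Mx1 and Ifit3 had none. The whole list summed to 431.5 ± 16.8 CPM in Wt and 498 ± 62.2 in Ifnar1-/- (exact permutation p = 0.143). Most of this sum was Irf2 (138 ± 20.4 and 149 ± 13.4 CPM), Adar (96.6 ± 23.8 and 116 ± 24.7 CPM) and Herc6. It thus says little about the genes too low to test.

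The receptor and its signal chain were likewise sparse. Jak1 had 49 UMIs in Wt and 39 in Ifnar1-/-, Tyk2 had 30 and 15, Stat2 had 21 and 25, Irf9 had 10 and 16, and Ifnar2 had 6 and 3. The 3 of 15 genes that were tested were the phosphatases Ptpn11 (log2 fold change -0.75, SE 0.35) and Ptpn2 (0.58, SE 0.32) and the STAT inhibitor Pias1 (0.01, SE 0.21), and none passed. A difference in most of these genes was not detectable at this depth.

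Over all 16 gene lists, the interferon lists and those for neuronal identity, synapses, channels and metabolism, 0 of 183 tested genes passed the threshold in edgeR, and 0 passed in DESeq2. In edgeR 9 of the 183 had an unadjusted p under 0.05, a share close to that over all genes tested (167 of 3756, 4.45%). Transcription factors of IT neurons (10 of 25 tested) had a median log2 fold change of -0.03, with 4 higher and 6 lower, against a median of 0.00 over all 3756 genes (1896 higher, 1860 lower). Rora, a nuclear receptor related to Rorb, stood at 1578 ± 115 CPM in Wt and 1472 ± 412 in Ifnar1-/- (SD, n = 4 each), and Cux1 at 419.5 ± 183 and 509 ± 86.0 CPM. Rorb stood at 901 ± 131 and 1043 ± 171 CPM and Cux2 at 426.5 ± 61.7 and 461.5 ± 44.3 CPM without TMM scaling, as levels within nuclei that had been chosen for them.

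Glutamate receptors were well detected. AMPA receptor subunits and partners (14 of 19 tested) had a median of 0.06 with 8 higher and 6 lower, and Gria2, which sets their calcium permeability, stood at 1517 ± 166 CPM in Wt and 1854 ± 471 in Ifnar1-/- (SD, n = 4 each; log2 fold change 0.26, SE 0.14). NMDA receptor subunits (3 of 7 tested) had a median of 0.01. The obligatory subunit Grin1 was fitted at -0.31 (SE 0.17), while Grin2a and Grin2b were at 0.01 and 0.02. Kainate receptors (4 of 7) had a median of -0.14 and Grik5 was fitted at -0.42 (SE 0.24). Metabotropic receptors (5 of 8) had a median of 0.11, and Grm3, which acts through inhibitory G proteins, had the smallest p of these lists, with a log2 fold change of 0.55 (SE 0.22, edgeR unadjusted p = 0.0212).

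Receptors for GABA (12 of 14 tested) had a median of 0.03, and Gabra3, an alpha subunit, was fitted at 0.70 (SE 0.31). Genes of vesicle release (27 of 35) had a median of 0.03, and Syn3, a synapsin, was fitted at 0.57 (SE 0.26) and Nsf, which takes apart SNARE complexes, at -0.38 (SE 0.18). Synapse organisers (28 of 43) had a median of 0.03, with Cntnap2 at 0.35 (SE 0.16). Potassium channels (27 of 33) had a median of 0.09, with the calcium-activated channel Kcnn2 at 0.66 (SE 0.29) and Kcnh1 at 0.41 (SE 0.19). Sodium, calcium and HCN channels (17 of 26) had a median of 0.12, with the calcium channel subunit Cacna2d3 at 0.39 (SE 0.18). Each of these genes had an unadjusted p between 0.0334 and 0.0399 in edgeR and an adjusted p of 1.0.

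Immediate early genes (5 of 30 tested) had a median of 0.14 and ran from Junb at -0.80 (SE 0.47) to Bdnf at 0.61 (SE 0.38). Genes linked to Parkinson's disease, the disease that the study addresses, were tested for 9 of 19 members, with 2 higher and 7 lower and a median of -0.11. Mitochondrially encoded genes (8 of 13 tested) had a median of 0.28, with 7 higher and 1 lower and mt-Nd2 at 0.55 (SE 0.32, edgeR unadjusted p = 0.0989), and nuclear genes of oxidative phosphorylation (8 of 75 tested) had a median of -0.05. The share of mitochondrially encoded UMIs ran from 0.115% to 0.459% in Wt and from 0.109% to 0.804% in Ifnar1-/-, with M2 the highest mouse of both genotypes.

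To ask whether the genotypes differ otherwise in layer 4 IT nuclei than in other excitatory nuclei, the difference between the differences was tested. Against the other glutamatergic nuclei of the same mice, 6 of 15121 genes passed in edgeR (0.0397%), and against the layer 2/3 gate (784 nuclei) 1 of 6066 (0.0165%). Of those named here, Mag and Ptgds are made by oligodendrocytes, and Erbb4 and Nxph1 are abundant in inhibitory neurons. The values were -3.47 for Ptgds, -4.36 for Mag, 1.56 for Erbb4, 2.67 for Nxph1 and 1.64 for Kctd8, an auxiliary subunit of GABA-B receptors. Erbb4 was also the gene that passed against the layer 2/3 gate, at 2.21 (SE 0.42, edgeR adjusted p = 0.0335).

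Kctd8 apart, most UMIs of these genes lay in few nuclei. Of 166 Erbb4 UMIs in the layer 4 IT nuclei, 117 were in the 8 nuclei that Scrublet called as doublets, 103 of them in Ifnar1-/-, and 1 nucleus of Ifnar1-/- M1 held 68. For Nxph1 it was 27 of 46, for Ptgds 35 of 47, for Mag 24 of 29, and for Kctd8 9 of 96. Mbp, named in the genotype fit above, had 36 of its 136 UMIs in these doublets, all in Wt. With the called doublets left out, 0 genes passed against either population in edgeR (638 and 245 at an unadjusted p under 0.05), and the values for Erbb4 and Kctd8 were -0.41 and 1.46. DESeq2 on all 162 nuclei also gave 0 against each.

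Markers of other cells were summed over the layer 4 IT nuclei of each mouse. All 6 oligodendrocyte markers had UMIs, and they summed to 136 to 637 CPM in Wt and 53.5 to 182 CPM in Ifnar1-/- (exact permutation p = 0.0857), against 2225 CPM in all nuclei outside the glutamatergic gate. All 10 markers of inhibitory neurons summed to 105 to 199 CPM in Wt and 91.5 to 605 CPM in Ifnar1-/-, where M1 was the highest. All 7 markers of microglia summed to 68.0 to 86.4 CPM in Wt and 80.3 to 222 CPM in Ifnar1-/- (exact permutation p = 0.0857). The 7 markers of astrocytes summed to 527 to 640 CPM in Wt and 557 to 750 CPM in Ifnar1-/-, most of it Slc1a2, which these neurons share, while Aqp4 had 1 UMI. Of 5 vascular markers Cldn5 and Rgs5 had none. Their part in the genotype differences of genes other than these was not tested.

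Gm43713 was higher in Ifnar1-/- in the other glutamatergic nuclei as well. It stood at 73.6 ± 18.8 CPM in Wt and 235 ± 19.1 in Ifnar1-/- in the other glutamatergic nuclei, and the difference between the differences was -0.08 (SE 0.25, edgeR adjusted p = 1.0). Against the layer 2/3 gate it was -0.11 (SE 0.26). Neither passed.

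Females and males differed in more genes than the genotypes did. In the same fit 113 of 3756 genes passed (3.01%), 39 higher and 74 lower in females. Of the 113, 3 are on the X chromosome, 2 on the Y, 3 are mitochondrially encoded and 104 are autosomal, while 1 could not be placed. Xist, which silences an X chromosome, stood at 889 ± 209 CPM in females and 1.28 ± 2.56 in males (SD, n = 4 each), and its antisense RNA Tsix at 354 ± 33 and 0 CPM, the reads of which may overlap. The Y-linked genes Eif2s3y and Uty stood at 131 ± 5.9 and 117 ± 24.8 CPM in males and had 0 and 1 UMI in females. All 8 mice matched their labelled sex.

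Of the 6 genes with the smallest p, C1qtnf4 and Gm27032 are autosomal and were lower in females. C1qtnf4, a secreted protein of the C1q family, stood at 78.6, 37.3, 42.4 and 36.8 CPM in Wt F1, Wt F2, Ifnar1-/- F1 and Ifnar1-/- F2, and at 239, 368, 296.5 and 186 CPM in Wt M1, Wt M2, Ifnar1-/- M1 and Ifnar1-/- M2. The sexes did not overlap, and the log2 fold change was -2.48 (SE 0.28, edgeR adjusted p = 3.92e-06). Gm27032, on chromosome 2, stood at 13.1 ± 6.76 CPM in females and 186.5 ± 91.3 in males. Among genes chosen after their values were seen, Cck, a neuropeptide of many cortical excitatory neurons, stood at 144 ± 109 and 704 ± 273 CPM, the ferritin gene Fth1 at 19.4 ± 17.7 and 188 ± 120 CPM, and Gm44511 was higher in females at 740 ± 162 against 174 ± 76.5 CPM.

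Of 8 mitochondrially encoded genes tested, 3 were lower in females past the threshold (mt-Atp6, mt-Co2 and mt-Co3), where 3.01% of all genes tested passed for sex in either direction. The other 5 did not pass, and the median log2 fold change of the 8 was -1.22 against 0.01 over all genes. The mitochondrially encoded share was 0.19% ± 0.0904 in females and 0.432% ± 0.272 in males (exact permutation p = 0.143), and the median UMIs per layer 4 IT nucleus 10763 ± 2249 and 9188 ± 1203 (SD, n = 4 each). The part of RNA quality or of the handling of females and males in these differences was not tested. Lmo4, a LIM-only factor, was the only tested transcription factor of IT neurons to pass, and it fell by 0.92 on the log2 scale in females. AMPA receptor genes had a median of 0.34 in females against males, with 12 of 14 higher and none past the threshold. Over all genes tested, 1910 of 3756 were higher in females. The lean was not particular to AMPA receptors, as synapse organisers had 24 of 28 higher and sodium, calcium and HCN channels 13 of 17. Receptors for GABA had 5 of 12 higher and kainate receptors 1 of 4. No gene passed a test for a genotype difference that differed between the sexes (0 of 3756 in edgeR, 136 at an unadjusted p under 0.05).

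**Figure D5:**
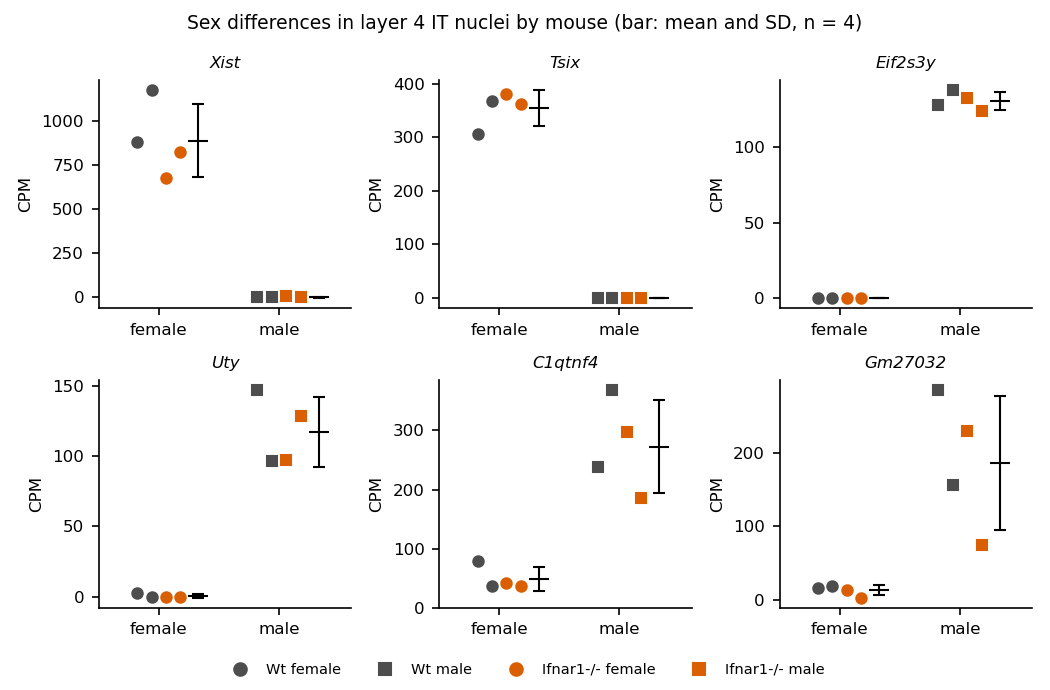
Each panel gives the TMM-scaled level (CPM) in the layer 4 IT nuclei of each mouse, by sex (gray Wt, orange Ifnar1-/-), with the mean and SD of 4 mice, for the 6 genes with the smallest p. Xist and Tsix are near 0 in every male, Eif2s3y and Uty near 0 in every female, and C1qtnf4 and Gm27032 are lower in all 4 females than in any male.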

How the data were processed

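Nuclei of frozen cortex were profiled by droplet snRNA-seq. The authors counted reads with Cell Ranger 3.1.0 (per the file headers) on mm10, with introns included, and deposited raw UMI counts per gene and nucleus, before their own filters, doublet removal and integration in Seurat 3.1.5 (both tools per the submitters' processing notes). From 56780 barcodes, nuclei with 200 to 6000 genes, over 1000 UMIs and under 10% mitochondrially encoded UMIs were kept. Doublets were kept and, as an alternative, those called by Scrublet (scanpy 1.11.5, 2262 in all) left out. UMIs of layer 4 IT nuclei were summed per mouse and tested with edgeR 4.0.16 (quasi-likelihood, TMM factors 0.926 to 1.06, filterByExpr, genotype and sex in the model), with Benjamini-Hochberg adjustment over 3759 genes, of which 3 that the limits use were set aside. Differences between populations were fitted with a term per mouse. Shares were compared by exact permutation over 70 arrangements. P-values measure the spread between these 8 mice.

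The nuclei, gene lists and tests were chosen with earlier results of these data known. Named genes are those past the threshold, the next by p up to 20, markers, genes of the limits, list members of high level or small p, the 6 smallest p for sex, and the 15 highest ratios; some are not reported here. Coordinates are from GENCODE vM21 (GRCm38), matched by gene ID. Replicate numbers are shared by the genotypes. Same-numbered mice deviated together from their genotype means (correlations 0.148 to 0.254 over genes), as did mice of the same sex and other number (0.0855 to 0.352). With sex taken out as well, the correlation was -0.019 in females and -0.0042 in males. With 2 mice per sex and genotype this is 1 value per sex. What same-numbered mice share beyond sex, which the model holds, was thus not tested. The fits were tested on simulated counts with 200 changed genes. At an adjusted p under 0.05, the genotype fit recovered 99% of 4-fold and 64% of 2-fold changes, with 8 false calls. The test against the other glutamatergic nuclei recovered 41% of 4-fold and 13% of 2-fold changes, with 2 false calls, so it misses most such differences. Alternatives covered scaling, filtering, DESeq2 1.42.0, the limits on Rorb and Hs3st4, thinning, doublets, covariates and leaving out each mouse. Depth per gene limits the test to 3756 of 31053 genes.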

Additional observations from a re-analysis of the deposited data

Results flagged for a closer look

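In 110 groups of 4 mice tested for a value apart from the rest, 6 were found, where chance gives about 5.5. Gm43713 was at 93.2 CPM in Wt F2, with the other Wt mice at 64.3 to 69.0. Ifnar1 was at 28.2 CPM in Ifnar1-/- F1, the mouse with the fewest UMIs, from 2 UMIs, with the others at 6.69 to 10.2. C1qtnf4 was at 78.6 CPM in Wt F1, with the other females at 36.8 to 42.4. Single UMIs gave Xist 5.11 CPM in the male Ifnar1-/- M1, Uty 2.71 CPM in the female Wt F1 and Mag 4.14 CPM in Ifnar1-/- M2, where the others of the group had none.

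The genotype difference in layer 4 IT nuclei departed from that in the other glutamatergic nuclei, by a test of the difference itself, for Erbb4 (1.56), Ptgds (-3.47), Nxph1 (2.67), Kctd8 (1.64) and Mag (-4.36), and from that in the layer 2/3 gate for Erbb4 (2.21), all on the log2 scale. With called doublets left out none passed, and of these genes Kctd8 had the smallest share of its UMIs in such nuclei.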

How the results depend on the processing

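Gm43713 kept its direction under every alternative, with log2 fold changes of 1.46 to 1.73, and lost its call with at least 8 Rorb UMIs (adjusted p = 0.133) and without Wt M2. The count of genes that differed by genotype was 12 with no filter on low counts, 0 with at least 8 Rorb UMIs (82 at an unadjusted p under 0.05), 6 with the limits set on thinned nuclei, and 0 (without Wt M2) to 2 (without Wt F1, Wt M1, Ifnar1-/- F1 or Ifnar1-/- M2) with a mouse left out. Without the Hs3st4 limit it was 13, or 5 with genotype alone and 12 with the replicate block, and in the nuclei over that limit alone 12. With the replicate block in place of sex it was again 1, and no list member came to pass. Without the Hs3st4 limit the block lost the calls of Gm12394 and Prss48 and added Ptgds. The block replaces sex, so it gives no sex difference, the fits between populations hold a term per mouse already, and the share was not compared by pairs. The genes that differed by sex numbered 189 with no filter, 379 and 41 with at least 4 and 8 Rorb UMIs, 64 in DESeq2, 1205 without the Hs3st4 limit, and 42 (without Wt M2) to 165 with a mouse left out, with 68, 75 and 53 without Wt F1, Wt F2 and Ifnar1-/- M1. Genes that differed against the other glutamatergic nuclei numbered 3 with at least 4 Rorb UMIs, 0 without doublets, 0 in DESeq2 (240 at an unadjusted p under 0.05), and 2 (without Wt F2 or Ifnar1-/- M1; 3 without Wt M2) to 7 with a mouse left out. Against the layer 2/3 gate they numbered 3 with no filter, 0 in DESeq2 (81 at an unadjusted p under 0.05), 0 with at least 8 Rorb UMIs, without doublets and without the Hs3st4 limit, and 0 (without Wt F1, Wt F2, Wt M2, Ifnar1-/- F2 or Ifnar1-/- M1) to 3 (without Wt M1) with a mouse left out. The difference in share was -0.00139 points over all nuclei kept, -0.624 points without the Hs3st4 limit, and -0.182 (without Ifnar1-/- F2) to 0.193 with a mouse left out, also below 0 without Wt M1 or Wt M2. Of 761 values of single genes under the alternatives, 716 kept their direction and side of the threshold and 27 came to pass. Direction turned in 16, all of genes that had not passed. Without the Hs3st4 limit, Usp14 was at -0.11 (-0.12 with genotype alone, -0.16 with the replicate block). In the nuclei over the limit alone, Usp14 was at -0.33, Kctd8 at -0.49, Mbp at 0.035, Erbb4 at -0.38, Frs2 at -0.11, Cacna2d3 at -0.062 and mt-Nd2 at -0.016. With the limits set on thinned nuclei, which chose a wider set, Kctd8 was at -0.0066, Mbp at 0.0015, Erbb4 at -0.91, Cntnap2 at -0.11 and Nsf at 0.0054. Atp5o was at -0.22 with at least 8 Rorb UMIs. Against the other glutamatergic nuclei, Erbb4 was at -0.41 without doublets and Ifnar1 at 0.025 without the Hs3st4 limit. These alternatives change the nuclei or genes used, and the cause was not tested. Lists gave 0 calls in every setting, and 162 nuclei leave most interferon genes too low to test.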
